A study of Homo sapiens with 12 samples.

Results

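The amino acid response is the gene programme that cells switch on when amino acids run short or when translation is held back by stress kinases. Those kinases phosphorylate the initiation factor eIF2, which slows most protein synthesis but favours translation of ATF4, a bZIP transcription factor. ATF4 binds DNA together with C/EBP partners and activates genes for amino acid synthesis, amino acid transport, the charging of tRNA and the folate-dependent one-carbon pathway in mitochondria, and also genes of its own feedback such as DDIT3 and TRIB3. Because ATF4 is controlled mainly at translation, its mRNA level need not follow its activity. A list of 46 genes of this programme was followed here: 8 transcription factors and regulators, 4 stress effectors, 11 enzymes of amino acid and one-carbon metabolism, 7 amino acid transporters, 4 secreted factors or receptors, and 12 cytosolic tRNA synthetases. They are 46 of the 35810 genes to which transcripts were summed, and 44 of them were among the 12821 genes tested. The rule names genes by function, and the choice was made with earlier results of these data known.

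RNA with poly(A) tails was sequenced from HepG2, an established human line from a liver tumour that keeps many hepatocyte functions. There were 4 groups of 3 libraries, stated in the design text to be biological replicates: wild-type cells with 0.1% DMSO, wild-type cells with 5 µM sorafenib for 48 h, and a knockout of ARID1B made by CRISPR/Cas9 (ARID1B-KO) with the same 2 treatments. Sorafenib inhibits RAF and several receptor tyrosine kinases and is used against liver cancer, and ARID1B is a subunit of the BAF chromatin remodelling complex. The labels do not say how many ARID1B-KO clones were used, so a difference between the genotypes and a difference between clones cannot be told apart.

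Libraries held 19739582 to 29398257 estimated counts, and mitochondrial RNA made up 6.55% to 11.92% of them. ARID1B stood at 58.4 to 69.1 CPM (counts scaled to library size) in the 6 wild-type libraries and at 25.9 to 35.6 CPM in the 6 ARID1B-KO libraries, so transcript remained at a lower level. All 8 hepatocyte markers examined were detected in every library, with ALB at 31800 CPM or more. Of 15 markers of stromal, leukocyte and endothelial cells, 6 read 0 in every library (COL1A2, THY1, DCN, PTPRC, MS4A1 and KDR). The summed level of the other-cell markers was 3650 to 4070 CPM in wild-type DMSO, 841 to 958 in wild-type sorafenib, 1850 to 2490 in ARID1B-KO DMSO and 494 to 634 in ARID1B-KO sorafenib. Without LYZ, which hepatoma cells can express, the same sums were 41.2 to 55.4, 33.2 to 39.5, 43.2 to 62.5 and 37.3 to 57.8 CPM, and the part of these markers in the results was not tested.

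With sorafenib more of the programme was lower than higher, in both genotypes. In wild type 22 of the 44 tested members fell and 6 rose, against a background of 18.0% of all tested genes lower and 17.5% higher (35.4% called in either direction). In ARID1B-KO 28 fell and 7 rose, against 23.7% of all genes lower and 23.0% higher (46.7% in either direction). The median log2 fold change over the members was -0.49 in wild type and -0.52 in ARID1B-KO, and over all tested genes it was -0.01 and 0.01. A set of 21 members fell in both genotypes, where 14.6% of all genes did so, and 5 rose in both, where 13.7% of all genes did so. No member was called in opposite directions in the 2 genotypes. Tests are the edgeR quasi-likelihood test, with p-values adjusted by the Benjamini-Hochberg method over all 12821 genes, with a threshold of 0.05 for a call. Errors of log2 fold changes are standard errors. The 2 comparisons have no library in common. In bulk RNA, a change in every cell and a change in the share of expressing cells cannot be told apart.

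**Figure D1:**
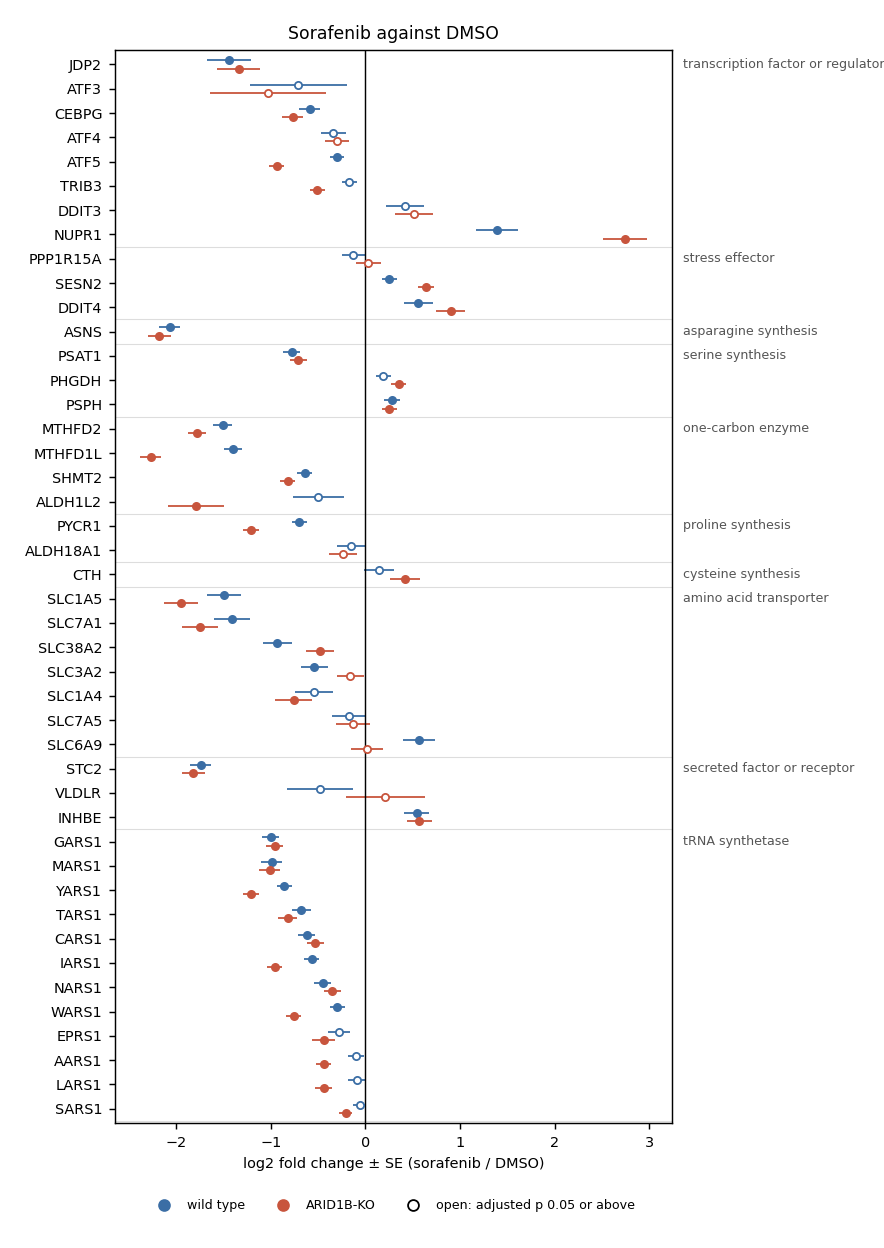
Log2 fold change of sorafenib against DMSO (x axis, ± standard error) for the 44 tested members, grouped by role, in wild type (blue) and ARID1B-KO (red); filled points are called at an adjusted p under 0.05 and open points are not. Points of the one-carbon enzymes and tRNA synthetases lie at or left of 0 in both genotypes, and NUPR1 lies farthest to the right at 1.39 and 2.74.

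Members differed widely in level. Levels were compared between genes in TPM, which scale each transcript's count by its length and by the library. In wild-type DMSO the amino acid transporter SLC38A2 was highest at 743 ± 130 TPM (SD, n = 3). The proline enzyme ALDH18A1 (264 ± 41), MARS1 (244 ± 66), PSAT1 (240 ± 4.8), ATF4 (216 ± 28) and SLC3A2 (216 ± 32) followed, and their ranges of spread overlap. At the low end stood JDP2 (2.08 ± 0.31), VLDLR (1.49 ± 0.41) and ALDH1L2 (0.568 ± 0.32). CHAC1, a glutathione-degrading enzyme often used as an ATF4 reporter, had 1, 0 and 3 counts in wild type with DMSO and none in the other 9 libraries. FGF21, a liver hormone and ATF4 target, was at 0 in all 12 libraries. Both were below the filter on low counts and were not tested.

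**Figure D2:**
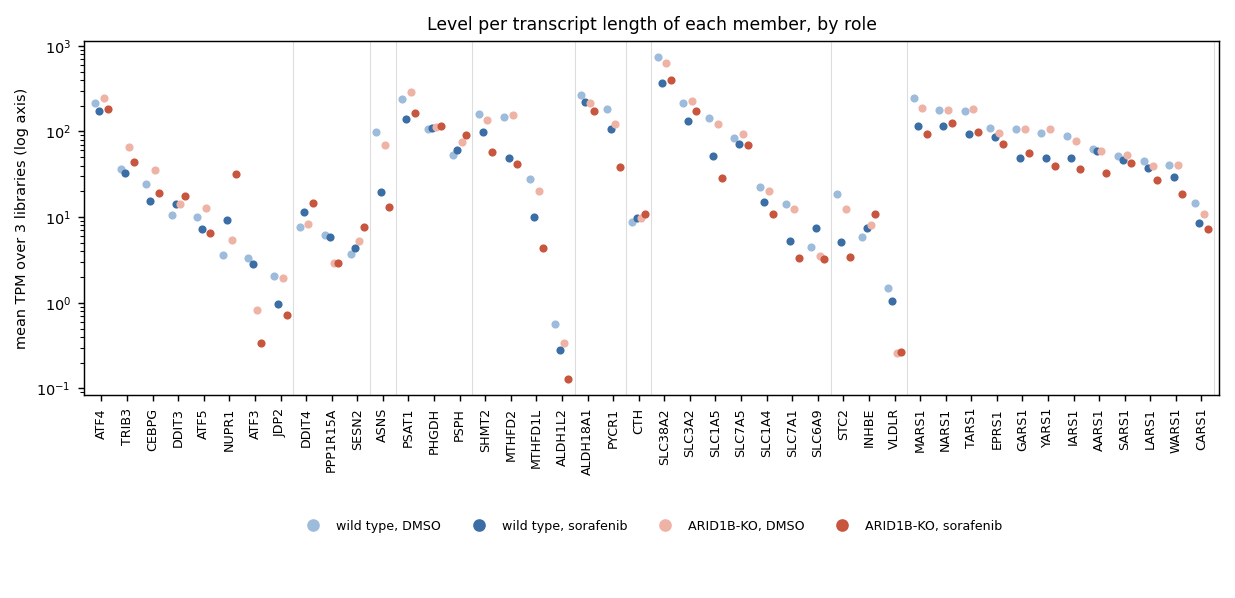
Mean TPM over 3 libraries (y axis, log scale) of the 44 tested members, grouped by role, with a point for each of the 4 groups. SLC38A2 is highest with 743 TPM in wild-type DMSO, and ALDH1L2 and VLDLR are lowest.

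ATF4 and its partners bind a composite C/EBP-ATF response element, and the promoters of the members were searched for it. The 8-letter form TGATGNAA, or TTNCATCA on the other strand, was looked for on both strands of the RefSeq promoter windows of GRCh38.p14. These run from 250 bases before to 50 bases after a RefSeq start, and a gene can have several starts. Of 38 members with a window, 18 (47.4%) held the letters, against 2.76% of the 9856 tested genes with a window and 4.46% of all 27305 genes with a window. By windows, 20 of 62 (32.3%) held them, against 3.62% of all 35116. Since the list was drawn from known ATF4 targets, this share is a description of the list and not separate evidence about it. The stretches below show the element (in capitals) upstream of a RefSeq start. Shown are 4 members that fell by at least 1 on the log2 scale in both genotypes (ASNS, MTHFD1L, SLC1A5, JDP2). The others are the ATF4 partner CEBPG, 2 tRNA synthetases, and CHAC1 and FGF21, which were below the filter and not tested. Each stretch is written 5′ to 3′ on the gene's own strand, from the RefSeq windows.
ASNS (chr7:97872443-97872502, minus strand): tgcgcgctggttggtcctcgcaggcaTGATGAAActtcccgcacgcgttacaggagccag
MTHFD1L (chr6:150866331-150866390, plus strand): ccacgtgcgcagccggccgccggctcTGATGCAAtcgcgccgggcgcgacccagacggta
SLC1A5 (chr19:46784878-46784937, minus strand): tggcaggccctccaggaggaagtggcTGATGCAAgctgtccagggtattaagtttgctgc
JDP2 (chr14:75427980-75428021, plus strand): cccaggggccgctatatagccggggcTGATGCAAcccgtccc
CEBPG (chr19:33374045-33374104, plus strand): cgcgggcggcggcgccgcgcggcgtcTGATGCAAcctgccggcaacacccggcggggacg
GARS1 (chr7:30594819-30594877, plus strand): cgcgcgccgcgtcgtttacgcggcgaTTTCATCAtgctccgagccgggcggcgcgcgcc
IARS1 (chr9:92293698-92293736, minus strand): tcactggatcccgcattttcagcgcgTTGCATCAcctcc
CHAC1 (chr15:40953236-40953295, plus strand): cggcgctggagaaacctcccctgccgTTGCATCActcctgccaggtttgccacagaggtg
FGF21 (chr19:48755444-48755503, plus strand): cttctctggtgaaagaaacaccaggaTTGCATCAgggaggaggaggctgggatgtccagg
In ASNS the element begins 68 bases before the start, in SLC1A5 97 bases, in CEBPG 42, in GARS1 33, in JDP2 16 and in IARS1 13. It reads on the gene's strand in ASNS, MTHFD1L, SLC1A5, JDP2 and CEBPG and on the opposite strand in the other 4. In CARS1, MARS1, NARS1, SLC1A4, SLC3A2, SLC7A1 and TARS1 the letters lie across or after the start.

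The sorafenib response was then set out by whether the window holds the element. Of the 16 tested members with it, 13 fell and none rose in wild type, with a median log2 fold change of -0.70. In ARID1B-KO 14 fell and none rose, with a median of -0.96. Of the 20 members whose windows lack the letters, 6 fell and 3 rose in wild type (median -0.17), and 9 fell and 4 rose in ARID1B-KO (median -0.22). The other 8 members have no window to search. Of these, 3 fell and 3 rose in wild type (median -0.30), and 5 fell and 3 rose in ARID1B-KO (median -0.63). Among all tested genes 18.0% were lower and 17.5% higher in wild type, and 23.7% and 23.0% in ARID1B-KO. The 256 other tested genes whose windows hold the letters were near these shares, with 18.8% lower and 21.5% higher in wild type (median -0.04) and 25.4% and 28.5% in ARID1B-KO (median -0.02). These counts are given as a description, without a test. MTHFD2, STC2 and PSAT1 fell and do not hold the letters in their windows.

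**Figure D3:**
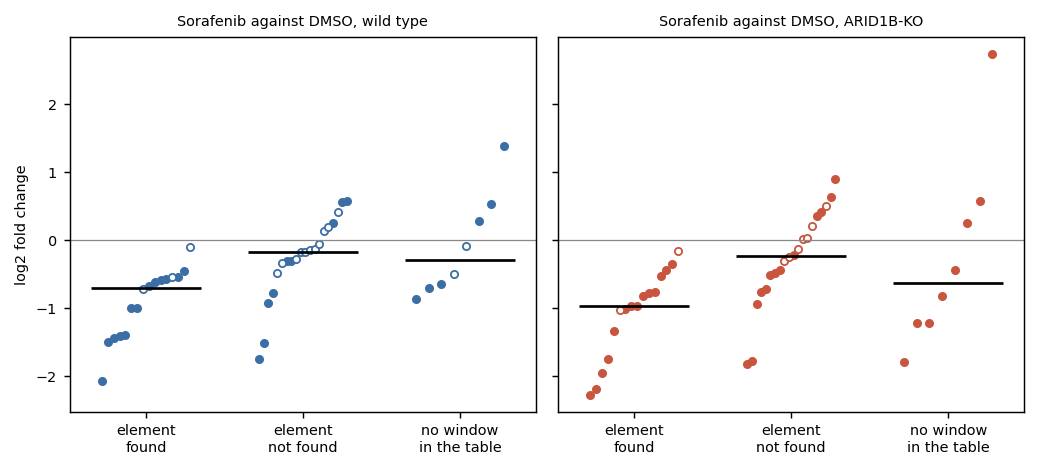
Log2 fold change of sorafenib against DMSO (y axis) of the 44 tested members in wild type (left) and ARID1B-KO (right), split by whether the promoter window holds the element, lacks it or is not in the table; filled points are called, open points are not, and bars are medians. The medians are -0.70 and -0.96 with the element, -0.17 and -0.22 where the window lacks it, and -0.30 and -0.63 where there is no window.

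ATF4 itself (chromosome 22, 39519695 to 39522683, plus strand; this and the following positions are GENCODE 44 on GRCh38) was not called in any of the 5 contrasts. It stood at 430, 338 and 335 CPM in wild-type DMSO and at 299, 268 and 303 in wild-type sorafenib, and at 340, 375 and 432 in ARID1B-KO DMSO and 274, 311 and 349 in ARID1B-KO sorafenib. The wild-type groups did not overlap and the ARID1B-KO groups did. The sorafenib contrast was -0.34 ± 0.13 in wild type and -0.30 ± 0.13 in ARID1B-KO, neither of which passed the test (edgeR adjusted p = 0.0556 and 0.0775). Over 18 alternatives the wild-type value ran from -0.41 to -0.21 and passed in 5, among them DESeq2 (-0.33, adjusted p = 0.0234) and edgeR with only the wild-type groups fitted (adjusted p = 0.0325). The smallest was -0.21 without wild-type DMSO replicate 1 (edgeR adjusted p = 0.229). The ARID1B-KO value ran from -0.38 to -0.19 and passed in 2 of 18, with -0.19 without ARID1B-KO DMSO replicate 3 (edgeR adjusted p = 0.288) and -0.20 without ARID1B-KO sorafenib replicate 1 (adjusted p = 0.271). Genotype gave 0.06 ± 0.13 in DMSO and 0.10 ± 0.13 in sorafenib. CEBPG, a C/EBP family partner of ATF4, fell, with log2 fold changes of -0.59 ± 0.11 in wild type and -0.77 ± 0.11 in ARID1B-KO (edgeR adjusted p = 0.00118 and 0.000106).

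The feedback genes below ATF4 gave estimates of either sign. DDIT3, which encodes the stress factor CHOP (chromosome 12, 57516588 to 57521737, minus strand), stood at 7.43, 8.01 and 6.52 CPM in wild-type DMSO and 12, 8.04 and 9.29 in wild-type sorafenib, and at 6.99, 9.07 and 11.9 in ARID1B-KO DMSO and 11.1, 14.7 and 14.0 in ARID1B-KO sorafenib. The wild-type sorafenib libraries lay above the DMSO ones, by a narrow margin, and the ARID1B-KO groups overlapped. Its log2 fold change was 0.42 ± 0.20 (edgeR adjusted p = 0.121) and 0.51 ± 0.20 (edgeR adjusted p = 0.0509). The wild-type value passed in none of 18 alternatives and was 0.25 without wild-type sorafenib replicate 1 (edgeR adjusted p = 0.416). The ARID1B-KO value passed in 7 of 18, among them DESeq2 (adjusted p = 0.0283), and ran from 0.36 to 0.74. Exons of DDIT3 share 355 of their 1307 bases with MARS1, on the other strand, which has a mean of 2926 counts per library against 229 for DDIT3. The labels do not say whether the quantification used strand.
TRIB3, a pseudokinase that binds ATF4 and restrains it (chromosome 20, 362835 to 397559, plus strand), measured 125, 126 and 127 CPM in wild-type DMSO and 106, 112 and 118 in wild-type sorafenib, and 207, 201 and 218 in ARID1B-KO DMSO and 141, 158 and 141 in ARID1B-KO sorafenib. The 6 ARID1B-KO libraries were all above the 6 of wild type. It fell with sorafenib in ARID1B-KO (-0.51 ± 0.08, edgeR adjusted p = 0.000154), and the wild-type value was -0.17 ± 0.08 (edgeR adjusted p = 0.105). Between genotypes it was higher in ARID1B-KO by 0.72 ± 0.08 in DMSO and by 0.39 ± 0.08 in sorafenib (edgeR adjusted p = 2.08e-05 and 0.00262). The difference of its 2 sorafenib responses was -0.34 ± 0.11 (edgeR adjusted p = 0.157). PPP1R15A, the subunit GADD34 that brings a phosphatase to eIF2 (chromosome 19, 48872212 to 48876059, plus strand), measured 24.9, 24.2 and 29.9 CPM in wild-type DMSO and 28.4, 21.7 and 21.9 in wild-type sorafenib, and 10.7, 11.3 and 12.6 in ARID1B-KO DMSO and 11, 12.5 and 12 in ARID1B-KO sorafenib. Treatments overlapped within each genotype, and no ARID1B-KO library reached the lowest of wild type. Its sorafenib log2 fold changes were -0.13 ± 0.12 and 0.03 ± 0.13, and it was lower in ARID1B-KO by -1.19 ± 0.13 in DMSO and -1.02 ± 0.13 in sorafenib (edgeR adjusted p = 2.37e-05 and 9.28e-05).

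Among the other regulators NUPR1 rose and JDP2 fell. NUPR1, a small stress-induced chromatin protein (chromosome 16, 28532708 to 28539008, minus strand), stood at 4.07, 5.06 and 3.48 CPM in wild-type DMSO and 12.1, 10.1 and 10.8 in wild-type sorafenib, and at 3.28, 5.84 and 6.59 in ARID1B-KO DMSO and 29.4, 41.2 and 34.4 in ARID1B-KO sorafenib. The DMSO libraries of the genotypes overlapped, and the 3 ARID1B-KO sorafenib libraries lay above all others. The rise was 1.39 ± 0.22 in wild type and 2.74 ± 0.23 in ARID1B-KO on the log2 scale (edgeR adjusted p = 0.000401 and 1.21e-06). The difference between these responses, 1.35 ± 0.31, did not pass the test (edgeR adjusted p = 0.0595), whereas DESeq2 called it (1.36, adjusted p = 0.00195). JDP2, a bZIP repressor (chromosome 14, 75427716 to 75474111, plus strand), measured 6.57, 6.09 and 4.12 CPM in wild-type DMSO and 2.33, 2.20 and 1.63 in wild-type sorafenib, and 4.94, 4.72 and 4.38 in ARID1B-KO DMSO and 1.52, 2.29 and 1.73 in ARID1B-KO sorafenib. Sorafenib libraries lay below all DMSO libraries, and the genotypes overlapped. It fell, with log2 fold changes of -1.44 ± 0.23 and -1.34 ± 0.23 (edgeR adjusted p = 0.000325 and 0.000431).
ATF3, a stress-induced bZIP factor (chromosome 1, 212565334 to 212620777, plus strand), had few counts, from 1 to 124 in a library. It stood at 4.24, 3.70 and 4.42 CPM in wild-type DMSO and 1.54, 2.68 and 3.35 in wild-type sorafenib, and at 1.43, 1.03 and 0.721 in ARID1B-KO DMSO and 0.0421, 0.550 and 0.988 in ARID1B-KO sorafenib. No ARID1B-KO library reached a wild-type one. It was lower in ARID1B-KO by -1.95 ± 0.54 in DMSO and -2.28 ± 0.59 in sorafenib (edgeR adjusted p = 0.0182 and 0.0124). The DMSO call was lost without wild-type DMSO replicate 3, ARID1B-KO DMSO replicate 2 or ARID1B-KO DMSO replicate 3 (-1.74, edgeR adjusted p = 0.0659, without the last) or with the transcript-length offset (-2.09, adjusted p = 0.0722). Its sorafenib responses, -0.71 ± 0.51 and -1.03 ± 0.61, did not pass. The second was -0.46 without ARID1B-KO sorafenib replicate 1 (edgeR adjusted p = 0.414) and -1.85 without replicate 3 (adjusted p = 0.036).

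**Figure D4:**
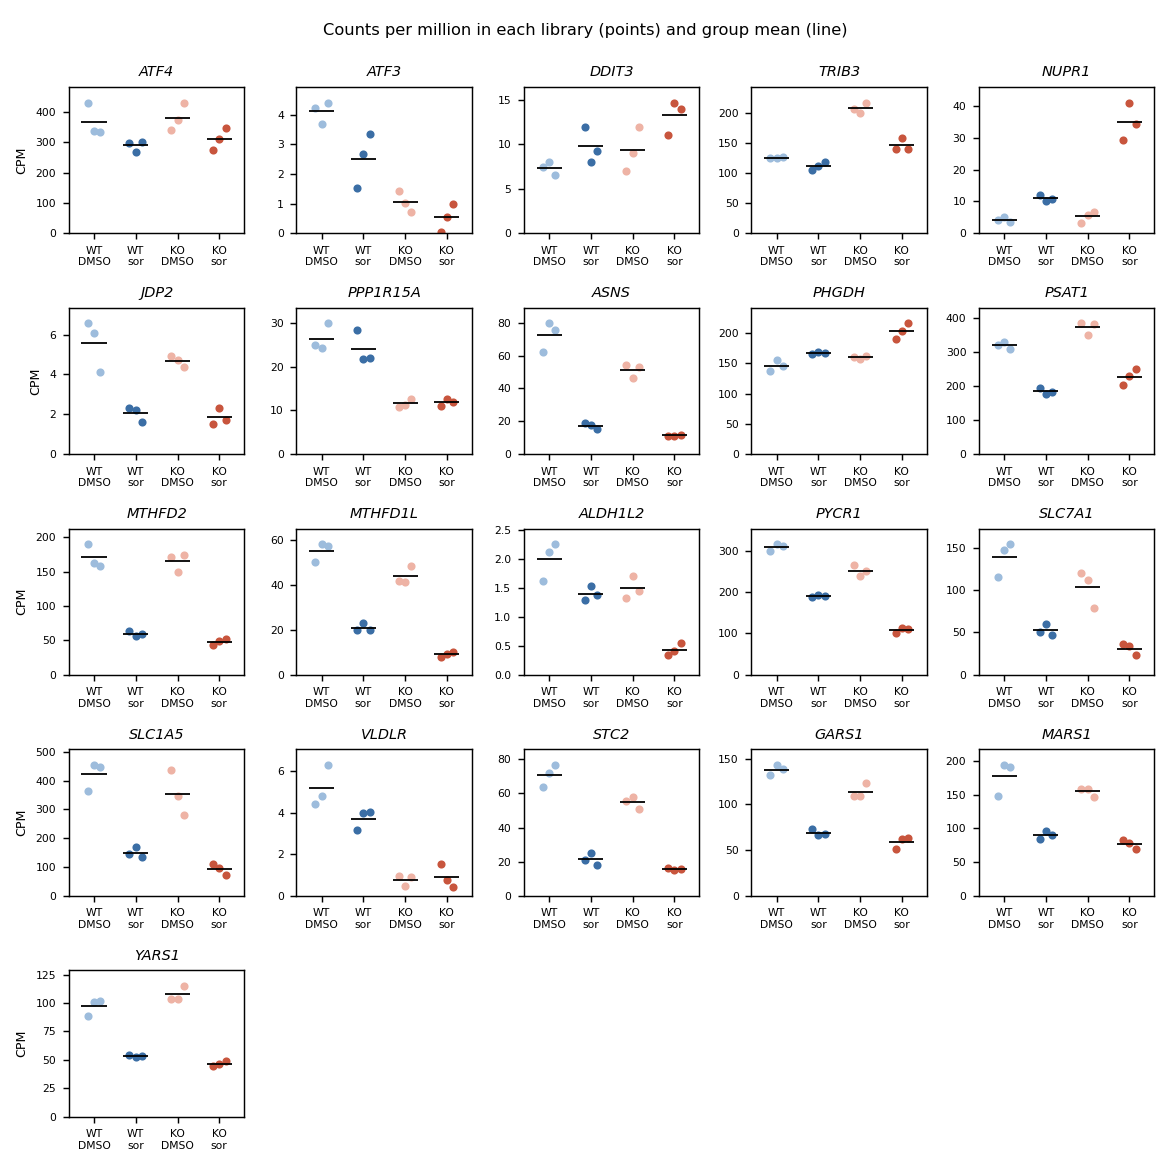
CPM in each of the 3 libraries of a group (points) with the group mean (line) for 21 members: 6 chosen for their place in the programme and those called with a log2 fold change of at least 1 in size. In ASNS, MTHFD2, MTHFD1L, STC2, SLC7A1 and SLC1A5 the sorafenib libraries lie below all DMSO libraries, and in PPP1R15A and VLDLR the ARID1B-KO libraries lie below all wild-type libraries.

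The enzymes of amino acid synthesis included members that fell and members that rose. ASNS, asparagine synthetase and a standard ATF4 target (chromosome 7, 97851677 to 97872542, minus strand), stood at 62.0, 79.7 and 75.8 CPM in wild-type DMSO and 19.0, 17.4 and 15.4 in wild-type sorafenib, and at 54.1, 46.5 and 53.3 in ARID1B-KO DMSO and 11.2, 11.2 and 11.6 in ARID1B-KO sorafenib. No group overlapped another. Its level fell with sorafenib by log2 fold changes of -2.07 ± 0.11 in wild type and -2.18 ± 0.12 in ARID1B-KO (edgeR adjusted p = 4.87e-08 and 3.23e-08), and the difference of these responses was -0.11 ± 0.16 (edgeR adjusted p = 0.797). It was lower in ARID1B-KO than in wild type by -0.50 ± 0.11 in DMSO and -0.61 ± 0.12 in sorafenib (edgeR adjusted p = 0.00376 and 0.0018). With an offset for transcript length neither genotype difference passed (-0.57 and -0.60, edgeR adjusted p = 0.0569 and 0.057).
The 3 steps of serine synthesis did not move together. PHGDH, the first enzyme (chromosome 1, 119648411 to 119744218, plus strand), measured 138, 155 and 146 CPM in wild-type DMSO and 165, 169 and 167 in wild-type sorafenib, and 161, 157 and 162 in ARID1B-KO DMSO and 190, 204 and 216 in ARID1B-KO sorafenib. All 4 groups were separate. It rose with sorafenib in ARID1B-KO (0.35 ± 0.08, edgeR adjusted p = 0.00232), and the wild-type value of 0.19 ± 0.08 did not pass (edgeR adjusted p = 0.0638). It passed in 3 of 18 alternatives, among them DESeq2 (0.20, adjusted p = 0.00765), and was 0.09 with the transcript-length offset (edgeR adjusted p = 0.761). The ARID1B-KO call was lost with the same offset (0.17, edgeR adjusted p = 0.496). Only 20% to 38% of PHGDH counts, as group means, were assigned to transcripts annotated as protein-coding with a defined reading frame.
PSAT1, the second enzyme (chromosome 9, 78297125 to 78330093, plus strand), moved the other way. It stood at 322, 329 and 309 CPM in wild-type DMSO and 195, 178 and 184 in wild-type sorafenib, and at 385, 352 and 384 in ARID1B-KO DMSO and 203, 231 and 251 in ARID1B-KO sorafenib. Every sorafenib library lay below every DMSO library. Both genotypes showed a fall, with log2 fold changes of -0.78 ± 0.09 and -0.71 ± 0.09 (edgeR adjusted p = 3.41e-05 and 4.62e-05).

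Of the 4 mitochondrial one-carbon enzymes, 3 fell in wild type and 4 in ARID1B-KO, against 18.0% and 23.7% of all tested genes. MTHFD2, a methylenetetrahydrofolate dehydrogenase (chromosome 2, 74186172 to 74217565, plus strand), measured 190, 163 and 159 CPM in wild-type DMSO and 63.8, 56.6 and 59.6 in wild-type sorafenib, and 172, 149 and 175 in ARID1B-KO DMSO and 43.3, 49.5 and 51.5 in ARID1B-KO sorafenib. The DMSO libraries of the genotypes overlapped, and the sorafenib ones did not. The fall passed the test in both genotypes, at log2 fold changes of -1.51 ± 0.10 and -1.78 ± 0.10 (edgeR adjusted p = 3.27e-07 and 7.61e-08). MTHFD1L, which turns formyl-tetrahydrofolate into formate (chromosome 6, 150865679 to 151101887, plus strand), measured 50.5, 58.2 and 57.6 CPM in wild-type DMSO and 19.8, 22.9 and 20.2 in wild-type sorafenib, and 42.0, 41.6 and 48.5 in ARID1B-KO DMSO and 8.04, 9.36 and 10.1 in ARID1B-KO sorafenib. All 4 groups were separate. It fell in both, with -1.40 ± 0.10 in wild type and -2.27 ± 0.11 in ARID1B-KO on the log2 scale (edgeR adjusted p = 7.54e-07 and 1.71e-08).
ALDH1L2, a mitochondrial formyl-tetrahydrofolate dehydrogenase (chromosome 12, 105019784 to 105107643, minus strand), rested on 8 to 60 counts per library. It stood at 1.61, 2.11 and 2.25 CPM in wild-type DMSO and 1.29, 1.53 and 1.38 in wild-type sorafenib, and at 1.33, 1.71 and 1.44 in ARID1B-KO DMSO and 0.337, 0.413 and 0.543 in ARID1B-KO sorafenib. The 3 ARID1B-KO sorafenib libraries were the lowest. It fell by 1.79 ± 0.30 on the log2 scale in ARID1B-KO (edgeR adjusted p = 0.000329, or -1.33 and adjusted p = 0.0514 with the transcript-length offset), and the wild-type value was -0.50 ± 0.27 (edgeR adjusted p = 0.163). Of its 9493 exonic bases, 131 are shared with WASHC4 and 145 with NOPCHAP1, both on the other strand. These genes have means of 1110 and 230 counts per library, against 31 for ALDH1L2. SHMT2, the mitochondrial serine hydroxymethyltransferase, fell, with log2 fold changes of -0.64 ± 0.08 and -0.82 ± 0.08.
PYCR1, the mitochondrial enzyme of the last step of proline synthesis (chromosome 17, 81932384 to 81942412, minus strand), stood at 300, 316 and 313 CPM in wild-type DMSO and 188, 194 and 190 in wild-type sorafenib, and at 265, 239 and 251 in ARID1B-KO DMSO and 101, 114 and 112 in ARID1B-KO sorafenib. All 4 groups were separate. Its log2 fold change was -0.70 ± 0.08 in wild type and -1.21 ± 0.08 in ARID1B-KO (edgeR adjusted p = 2.19e-05 and 1.82e-07). The difference of the responses, -0.51 ± 0.11, missed the threshold in edgeR (adjusted p = 0.0531) and passed in DESeq2 (-0.50, adjusted p = 4.55e-05). ALDH18A1, which makes the proline precursor, gave -0.15 ± 0.15 and -0.24 ± 0.15, and neither passed.

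Of 7 amino acid transporters, 4 fell in each genotype, against 18.0% of all tested genes in wild type and 23.7% in ARID1B-KO. SLC7A1, the cationic amino acid transporter (chromosome 13, 29509414 to 29595688, minus strand), stood at 115, 147 and 154 CPM in wild-type DMSO and 50, 59.6 and 47.2 in wild-type sorafenib, and at 120, 112 and 79.1 in ARID1B-KO DMSO and 35.9, 33.6 and 22.9 in ARID1B-KO sorafenib. The DMSO groups overlapped across genotypes, and the ARID1B-KO sorafenib libraries were the lowest. It fell, with log2 fold changes of -1.41 ± 0.19 and -1.75 ± 0.19 (edgeR adjusted p = 0.000112 and 1.43e-05). SLC1A5, the glutamine and neutral amino acid transporter ASCT2 (chromosome 19, 46774883 to 46788594, minus strand), stood at 364, 454 and 447 CPM in wild-type DMSO and 146, 170 and 135 in wild-type sorafenib, and at 436, 347 and 281 in ARID1B-KO DMSO and 109, 95.4 and 71.1 in ARID1B-KO sorafenib. Here too the DMSO groups overlapped across genotypes and the ARID1B-KO sorafenib libraries were the lowest. Its level fell with sorafenib by log2 fold changes of -1.49 ± 0.18 and -1.95 ± 0.18 (edgeR adjusted p = 4.82e-05 and 3.89e-06).
SLC38A2, the neutral amino acid transporter SNAT2 and the member with the highest TPM, fell by 0.93 ± 0.15 in wild type (edgeR adjusted p = 0.000379). Its ARID1B-KO change of -0.48 ± 0.15 (edgeR adjusted p = 0.0185) was lost without ARID1B-KO DMSO replicate 1 (-0.33, adjusted p = 0.114) or replicate 2, without ARID1B-KO sorafenib replicate 2 or 3, with the transcript-length offset (adjusted p = 0.0553) or with only the ARID1B-KO groups fitted (adjusted p = 0.0691). The leucine transporter SLC7A5 gave -0.17 ± 0.18 and -0.13 ± 0.18, and neither passed. Its heavy chain SLC3A2 fell in wild type (-0.54 ± 0.14, edgeR adjusted p = 0.0108), a call lost without wild-type sorafenib replicate 3 (-0.49, adjusted p = 0.05) or with the transcript-length offset (-0.63, adjusted p = 0.0647), and gave -0.16 ± 0.14 in ARID1B-KO. SLC1A4, a neutral amino acid transporter, fell in ARID1B-KO (-0.76 ± 0.20, edgeR adjusted p = 0.00848) and gave -0.54 ± 0.20 in wild type (adjusted p = 0.0536), which passed with the replicate block, with only the wild-type groups fitted and in DESeq2 (adjusted p = 0.0419, 0.0177 and 0.0306). The glycine transporter SLC6A9 rose in wild type by 0.57 ± 0.17 (edgeR adjusted p = 0.0163), a call lost without wild-type DMSO replicate 1 or wild-type sorafenib replicate 2 (0.49, adjusted p = 0.0688, without the latter), and gave 0.02 ± 0.17 in ARID1B-KO. The difference of its 2 responses was -0.56 ± 0.24 and did not pass (edgeR adjusted p = 0.276). Within ARID1B-KO, replicate 3 was the lowest library of each treatment for SLC7A1, SLC1A5, SLC1A4, SLC3A2, SLC7A5 and SLC38A2. The mitochondrial share of that replicate was 6.55% with DMSO and 8.79% with sorafenib, the lowest of each group, and its part in these values was not tested.

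Secreted factors and receptors went in different directions. STC2, a secreted stanniocalcin (chromosome 5, 173314723 to 173328447, minus strand), stood at 63.9, 71.8 and 76.6 CPM in wild-type DMSO and 20.8, 25.0 and 18.0 in wild-type sorafenib, and at 55.5, 58.1 and 51.1 in ARID1B-KO DMSO and 16.0, 15.0 and 15.5 in ARID1B-KO sorafenib. All 4 groups were separate. Both genotypes showed a fall, with log2 fold changes of -1.74 ± 0.11 and -1.82 ± 0.12 (edgeR adjusted p = 2.59e-07 and 1.55e-07). INHBE, the hepatokine subunit inhibin beta E, rose by 0.54 ± 0.13 and 0.57 ± 0.13 (edgeR adjusted p = 0.00702 and 0.00336), and with the transcript-length offset neither passed (0.38 and 0.53, adjusted p = 0.234 and 0.0792). VLDLR, the receptor for very low density lipoprotein (chromosome 9, 2621182 to 2660056, plus strand), had 8 to 168 counts per library. It stood at 4.42, 4.82 and 6.30 CPM in wild-type DMSO and 3.16, 3.97 and 4.02 in wild-type sorafenib, and at 0.951, 0.449 and 0.914 in ARID1B-KO DMSO and 1.52, 0.734 and 0.395 in ARID1B-KO sorafenib. All ARID1B-KO libraries lay below all wild-type ones. Genotype gave -2.74 ± 0.40 in DMSO and -2.05 ± 0.39 in sorafenib (edgeR adjusted p = 0.000263 and 0.00189), and sorafenib gave -0.48 ± 0.35 and 0.21 ± 0.42, which did not pass.

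The 12 cytosolic tRNA synthetases, which load amino acids onto tRNA, were lower with sorafenib without exception in the point estimates. Called as lower were 8 in wild type and 12 in ARID1B-KO, with medians of -0.51 and -0.65 over the 12. Of all tested genes 18.0% were lower in wild type and 23.7% in ARID1B-KO. GARS1, for glycine (chromosome 7, 30580533 to 30634033, plus strand), measured 132, 143 and 139 CPM in wild-type DMSO and 73.3, 66.2 and 67.2 in wild-type sorafenib, and 109, 109 and 123 in ARID1B-KO DMSO and 50.9, 61.6 and 63.4 in ARID1B-KO sorafenib. The 4 groups were separate. The fall passed the test in both genotypes, at log2 fold changes of -1.003 ± 0.09 and -0.96 ± 0.09 (edgeR adjusted p = 4.68e-06 and 4.37e-06). MARS1, for methionine (chromosome 12, 57475445 to 57517569, plus strand), measured 148, 194 and 192 CPM in wild-type DMSO and 83.5, 95.5 and 90.4 in wild-type sorafenib, and 159, 159 and 147 in ARID1B-KO DMSO and 82.6, 78.4 and 69.8 in ARID1B-KO sorafenib. The DMSO groups overlapped across genotypes and the sorafenib libraries lay below all of them. It fell, with log2 fold changes of -0.99 ± 0.11 and -1.01 ± 0.11 (edgeR adjusted p = 1.85e-05 and 1.02e-05).
YARS1, for tyrosine (chromosome 1, 32775237 to 32818031, minus strand), stood at 88.2, 101 and 102 CPM in wild-type DMSO and 54.2, 52.1 and 53.5 in wild-type sorafenib, and at 104, 104 and 115 in ARID1B-KO DMSO and 44.5, 46.2 and 48.5 in ARID1B-KO sorafenib. Its groups were separate, with ARID1B-KO the higher in DMSO and the lower in sorafenib. Its level fell with sorafenib by log2 fold changes of -0.86 ± 0.08 and -1.21 ± 0.08 (edgeR adjusted p = 4.02e-06 and 1.75e-07), and the difference of the responses was -0.35 ± 0.11 (edgeR adjusted p = 0.154). Only 1.58% to 4.40% of YARS1 counts, as group means, were assigned to protein-coding transcripts. Its largest transcripts, YARS1-203, YARS1-206 and YARS1-210, were annotated as retained intron or nonsense-mediated decay. The enzymes for threonine (TARS1, -0.68 ± 0.10 and -0.82 ± 0.10), cysteine (CARS1, -0.62 ± 0.09 and -0.53 ± 0.09), isoleucine (IARS1, -0.57 ± 0.08 and -0.96 ± 0.08) and asparagine (NARS1, -0.45 ± 0.09 and -0.35 ± 0.09) also fell in both genotypes. For IARS1 the mean share of counts on protein-coding transcripts was 62.1% in wild-type DMSO and 89.3% in wild-type sorafenib. In ARID1B-KO this share was 57.7% and 55.5%. Wild-type counts of the protein-coding transcript IARS1-202 overlapped between treatments, before any correction for depth. The wild-type fall of IARS1 is thus one of the summed counts of the gene. The enzymes for alanine (AARS1) and leucine (LARS1) fell in ARID1B-KO, with -0.44 ± 0.08 and -0.44 ± 0.09, and gave -0.10 ± 0.08 and -0.09 ± 0.09 in wild type. The differences of the responses were -0.33 ± 0.12 and -0.35 ± 0.12 and did not pass (edgeR adjusted p = 0.19 and 0.193).
The tryptophan enzyme WARS1 fell by 0.76 ± 0.08 in ARID1B-KO (edgeR adjusted p = 1.11e-05), and its wild-type change of -0.30 ± 0.08 (adjusted p = 0.0122) was lost without wild-type DMSO replicate 3 (-0.25, adjusted p = 0.0556) or wild-type sorafenib replicate 2. For EPRS1, which serves glutamate and proline, the ARID1B-KO change of -0.44 ± 0.12 (edgeR adjusted p = 0.0111) was lost without ARID1B-KO DMSO replicate 1 (-0.35, adjusted p = 0.0657). The serine enzyme SARS1 gave the smallest called change, -0.21 ± 0.07 in ARID1B-KO (edgeR adjusted p = 0.0371), which was lost without replicate 1 or 3 of wild-type sorafenib, of ARID1B-KO DMSO or of ARID1B-KO sorafenib (-0.15, adjusted p = 0.156, without ARID1B-KO DMSO replicate 1). With the transcript-length offset WARS1 in wild type and EPRS1, LARS1 and SARS1 in ARID1B-KO no longer passed (edgeR adjusted p = 0.0872, 0.0682, 0.0747 and 0.166), and AARS1 in ARID1B-KO was -0.75 (adjusted p = 0.00532). SARS1 also missed the threshold with RLE size factors, no filter on low counts, the replicate block or only the ARID1B-KO groups fitted (edgeR adjusted p = 0.0535, 0.105, 0.0584 and 0.108).

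A few members rose with sorafenib, 6 in wild type (13.6%) and 7 in ARID1B-KO (15.9%). These shares are below those of all tested genes, 17.5% and 23.0%. DDIT4, an inhibitor of mTORC1 signalling, rose by 0.56 ± 0.15 in wild type and 0.90 ± 0.15 in ARID1B-KO (edgeR adjusted p = 0.0115 and 0.000397), and the wild-type call was lost without wild-type sorafenib replicate 2 (0.47, adjusted p = 0.0527). SESN2, a leucine sensor that also restrains mTORC1, rose by 0.64 ± 0.08 in ARID1B-KO (edgeR adjusted p = 4.41e-05). Its wild-type change of 0.25 ± 0.08 (adjusted p = 0.035) was lost without wild-type DMSO replicate 1 (0.20, adjusted p = 0.116) or 3 or wild-type sorafenib replicate 2 or 3, and with no filter on low counts (adjusted p = 0.0603), the transcript-length offset (0.0531) or the replicate block (0.0518). PSPH, the last enzyme of serine synthesis, rose by 0.28 ± 0.08 and 0.25 ± 0.08 (edgeR adjusted p = 0.0197 and 0.0261). The first call was lost without wild-type DMSO replicate 2 or 3 or wild-type sorafenib replicate 1 or 3 (0.24, adjusted p = 0.0834, without the last) or with the transcript-length offset (adjusted p = 0.114), and the second without ARID1B-KO DMSO replicate 2 or ARID1B-KO sorafenib replicate 2 or 3 (0.23, adjusted p = 0.0843, without sorafenib replicate 2) or with only the ARID1B-KO groups fitted (adjusted p = 0.0618). CTH, the cysteine-forming cystathionine gamma-lyase, rose by 0.42 ± 0.16 in ARID1B-KO at an edgeR adjusted p of 0.049, and lost this call without any of 9 libraries (0.30, adjusted p = 0.181, without ARID1B-KO sorafenib replicate 3; all but wild-type DMSO replicates 1 and 2 and ARID1B-KO sorafenib replicate 1), with no filter on low counts (adjusted p = 0.0543) or with the transcript-length offset (0.30, adjusted p = 0.242). Without wild-type sorafenib replicate 2 the number of members that rose in wild type was 3 in place of 6.

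Fewer members were called between genotypes in DMSO than in sorafenib. In DMSO 6 members were higher and 10 lower in ARID1B-KO than in wild type, against 14.3% and 13.5% of all tested genes (27.8% in either direction), and the median over the members was -0.14. In sorafenib 7 were higher and 19 lower, against 13.2% and 13.8% (27.0% in either direction), with a median of -0.25. The comparisons share no library, and the difference between their counts was not itself tested. The lower count in DMSO was 6 without wild-type DMSO replicate 2, 5 without wild-type DMSO replicate 3 and 6 without ARID1B-KO DMSO replicate 2. With the transcript-length offset the lower counts were 5 in DMSO and 11 in sorafenib.

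**Figure D5:**
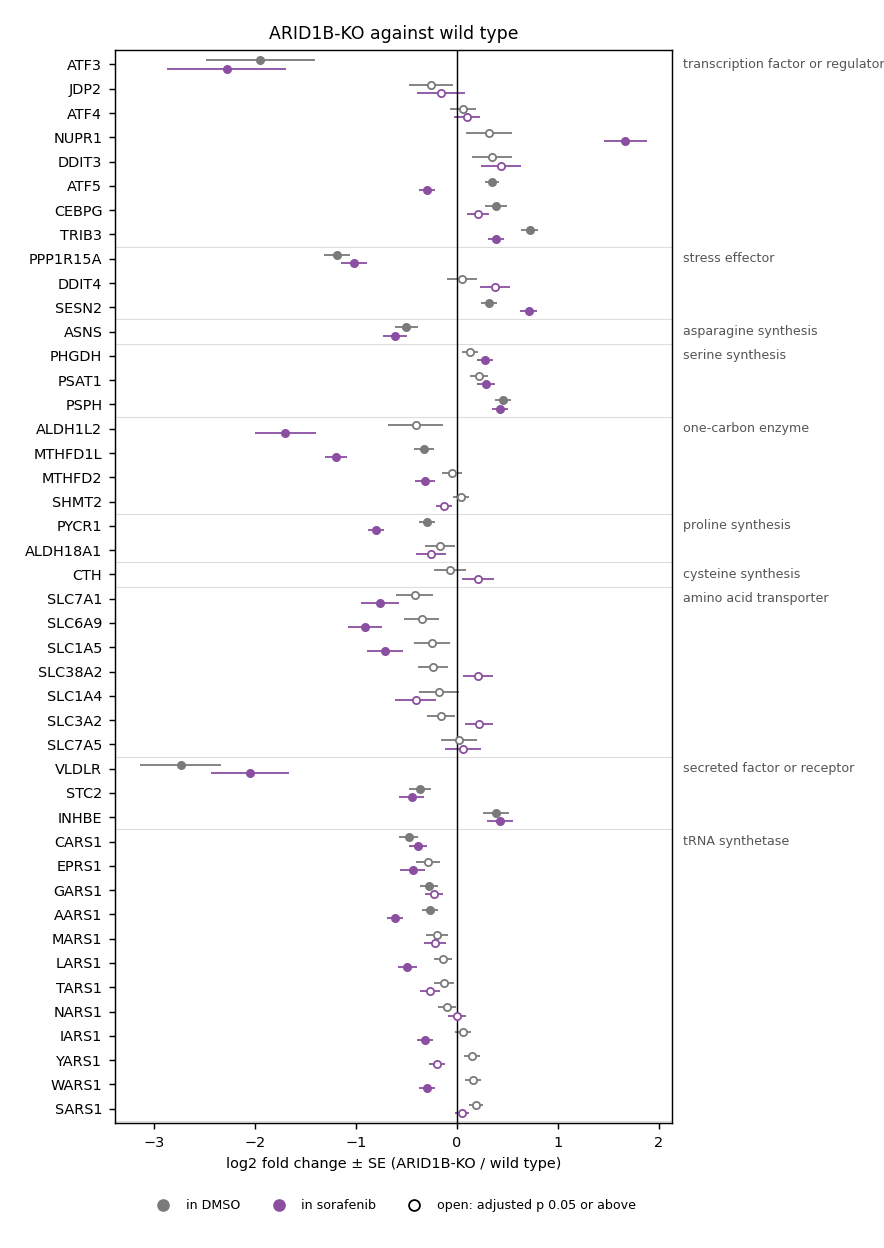
Genotype difference, as log2 of ARID1B-KO over wild type (x axis, ± standard error) for the 44 tested members by role, in DMSO (grey) and in sorafenib (purple); filled points are called at an adjusted p under 0.05. VLDLR, ATF3 and PPP1R15A are lower under both treatments, and NUPR1 is higher in sorafenib at 1.67. The one-carbon enzymes and the transporters SLC7A1, SLC1A4, SLC1A5 and SLC6A9 lie farther left in sorafenib, and SLC3A2, SLC38A2 and SLC7A5 farther right. Among these enzymes and transporters the interaction test called only MTHFD1L.

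Members that were lower in ARID1B-KO under both treatments were PPP1R15A, VLDLR and ATF3 as given above, and CARS1 (-0.48 ± 0.09 in DMSO and -0.39 ± 0.09 in sorafenib, edgeR adjusted p = 0.00177 and 0.00711), PYCR1 (-0.30 ± 0.08 and -0.80 ± 0.08, adjusted p = 0.0128 and 1.13e-05), ASNS, MTHFD1L, STC2 and AARS1. SESN2 (0.32 ± 0.08 and 0.71 ± 0.08, edgeR adjusted p = 0.0134 and 4.96e-05), PSPH (0.46 ± 0.08 and 0.43 ± 0.08, adjusted p = 0.00154 and 0.00238), TRIB3 and INHBE were higher under both. In sorafenib NUPR1 was higher by 1.67 ± 0.21 (edgeR adjusted p = 0.00011). ALDH1L2 (-1.70 ± 0.30, edgeR adjusted p = 0.00113), MTHFD1L (-1.20 ± 0.11, adjusted p = 6.82e-06), SLC6A9 (-0.91 ± 0.17, adjusted p = 0.00164), SLC7A1 (-0.76 ± 0.19, adjusted p = 0.0106) and SLC1A5 (-0.71 ± 0.18, adjusted p = 0.0112) were lower there. With the transcript-length offset the sorafenib values of ALDH1L2 (-1.20, edgeR adjusted p = 0.108) and CARS1 (-0.23, adjusted p = 0.202) did not pass, while PYCR1 was -0.66 in DMSO and -1.50 in sorafenib and MTHFD1L -0.56 in DMSO. SHMT2 in sorafenib was not called in the reported fit (-0.13 ± 0.08, edgeR adjusted p = 0.23). With this offset it was -0.76 and passed (edgeR adjusted p = 0.012). All 3 serine synthesis enzymes were higher in ARID1B-KO with sorafenib (PHGDH 0.28 ± 0.08, PSAT1 0.29 ± 0.09, PSPH 0.43 ± 0.08), but PHGDH lost its call without wild-type sorafenib replicate 1 (0.27, edgeR adjusted p = 0.0522) and PSAT1 without replicate 2 or 3 of either sorafenib group (0.26, adjusted p = 0.112, without wild-type sorafenib replicate 2). With the transcript-length offset PHGDH was 0.07 and PSAT1 0.23 (edgeR adjusted p = 0.828 and 0.134), and PSAT1 also missed the threshold with only the sorafenib groups fitted (adjusted p = 0.059).
Several smaller genotype calls in DMSO also rested on single libraries. STC2 (-0.37 ± 0.11) lost its call without wild-type DMSO replicate 2 or 3 or ARID1B-KO DMSO replicate 1 or 3 (-0.31, edgeR adjusted p = 0.0996, without wild-type replicate 3). MTHFD1L (-0.33 ± 0.10) lost it without replicate 2 of wild-type DMSO (-0.30, adjusted p = 0.0981) or 3, or replicate 1 or 2 of ARID1B-KO DMSO. AARS1 (-0.27 ± 0.08) lost it without replicate 2 or 3 of either DMSO group (-0.24, adjusted p = 0.102, without wild-type replicate 2), and CEBPG (0.39 ± 0.11) without wild-type DMSO replicate 2 or 3 or ARID1B-KO DMSO replicate 1 (0.32, adjusted p = 0.0846, without wild-type replicate 3). GARS1 (-0.28 ± 0.09; -0.25 and edgeR adjusted p = 0.123 without wild-type DMSO replicate 2) was lost without replicate 2 or 3 of wild-type DMSO or sorafenib, replicate 1 or 2 of ARID1B-KO DMSO, or replicate 2 of ARID1B-KO sorafenib. INHBE (0.39 ± 0.13; 0.25 and edgeR adjusted p = 0.206 without ARID1B-KO DMSO replicate 2) was lost without any of 9 libraries, all but wild-type sorafenib replicate 2 and replicate 3 of each ARID1B-KO group. In sorafenib, single libraries decided the calls of MTHFD2 (-0.32 ± 0.10; -0.27 and edgeR adjusted p = 0.118 without wild-type sorafenib replicate 1, and lost also without wild-type sorafenib replicate 3 or ARID1B-KO sorafenib replicate 1 or 2), STC2 (-0.45 ± 0.12; -0.33 and adjusted p = 0.0527 without wild-type sorafenib replicate 2) and WARS1 (-0.30 ± 0.08; -0.27 and adjusted p = 0.0649 without wild-type sorafenib replicate 1). The same held for INHBE (0.43 ± 0.13; 0.37 and edgeR adjusted p = 0.106 without wild-type sorafenib replicate 3, lost also without wild-type sorafenib replicate 1 or ARID1B-KO sorafenib replicate 1 or 2) and EPRS1 (-0.44 ± 0.12; -0.38 and adjusted p = 0.0718 without wild-type sorafenib replicate 2, lost also without wild-type sorafenib replicate 1 or ARID1B-KO sorafenib replicate 3). With the transcript-length offset several of these calls, and those of a few other members, were lost. In DMSO GARS1 was then -0.07, AARS1 -0.14, STC2 -0.66, INHBE 0.39 and ATF5 0.27 (edgeR adjusted p = 0.762, 0.614, 0.269, 0.237 and 0.174). In sorafenib MTHFD2 was -0.22, STC2 -0.58, INHBE 0.54, EPRS1 -0.29, IARS1 -0.41, LARS1 -0.46 and ATF5 -0.15 (edgeR adjusted p = 0.18, 0.354, 0.107, 0.136, 0.214, 0.074 and 0.464), and WARS1 was -0.65 and passed (adjusted p = 0.0187). AARS1 and GARS1 in DMSO also missed the threshold with no filter on low counts (edgeR adjusted p = 0.0534 and 0.0513).

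Whether the sorafenib response itself differed between genotypes was tested as an interaction, the response in ARID1B-KO minus that in wild type. It called 2 members, both lower, among the 44, against 0.835% of all tested genes (0.460% lower and 0.374% higher). The estimate was below 0 for 26 of the 44 members (59.1%), against 51.4% of all genes, and the median over the members was -0.10. The members called were MTHFD1L (-0.86 ± 0.15, edgeR adjusted p = 0.0264) and ATF5, a bZIP factor whose mRNA is translated under stress like that of ATF4 (-0.65 ± 0.11, edgeR adjusted p = 0.0263). ATF5 (chromosome 19, 49928702 to 49933935, plus strand) measured 27.2, 28.8 and 27.8 CPM in wild-type DMSO and 21.5, 23.0 and 23.7 in wild-type sorafenib, and 36.3, 34.7 and 35.9 in ARID1B-KO DMSO and 17.5, 18.9 and 19.1 in ARID1B-KO sorafenib. ARID1B-KO libraries were the highest in DMSO and the lowest in sorafenib. Exons of ATF5 share 565 of their 2892 bases with NUP62 on the other strand. The number of members called was 2 without wild-type DMSO replicate 1 or ARID1B-KO sorafenib replicate 3, 1 without wild-type sorafenib replicate 1, and 0 without any of the other 9 libraries. Neither passed with the transcript-length offset (MTHFD1L -0.67 and ATF5 -0.42, edgeR adjusted p = 0.286 and 0.418), and ATF5 missed the threshold with the replicate block (adjusted p = 0.0518).

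Other genes of the same pathways, from lists that are not part of the programme above, are counted here beside the same shares of all tested genes (18.0% lower and 17.5% higher in wild type, 23.7% and 23.0% in ARID1B-KO). Of 17 genes upstream of ATF4 (eIF2 kinases, eIF2 and its exchange factor eIF2B), wild type had 7 lower and 3 higher, and ARID1B-KO 5 lower and 2 higher. The smallest adjusted p were those of the eIF2 subunits EIF2S1 (-0.79 ± 0.09 and -0.87 ± 0.09) and EIF2S2 (-0.73 ± 0.12 and -0.97 ± 0.12) and the eIF2B subunit EIF2B3 (-0.62 ± 0.09 and -0.99 ± 0.10). Of 19 tested genes elsewhere reported as ATF4 targets, 10 were lower and 5 higher in wild type, and 9 lower and 7 higher in ARID1B-KO. The cystine transporter SLC7A11 (-1.97 ± 0.14 and -1.71 ± 0.14) and the tRNA export factor XPOT (-1.13 ± 0.08 and -1.39 ± 0.08) fell, while the heme oxygenase HMOX1 rose by 1.38 ± 0.09 and 0.67 ± 0.09. Of 8 cytosolic tRNA synthetases outside the list, 5 fell in wild type and 7 in ARID1B-KO and none rose, among them both phenylalanine subunits FARSA (-0.45 ± 0.07 and -0.81 ± 0.07) and FARSB (-0.65 ± 0.10 and -0.97 ± 0.10). Of 16 mitochondrial tRNA synthetases, 6 fell and 2 rose in each genotype, with MARS2 at -1.19 ± 0.13 and -1.47 ± 0.13.
Of 16 other serine, glycine and one-carbon genes, 5 rose and 3 fell in wild type and 4 rose and 5 fell in ARID1B-KO. That is 18.8% lower and 31.2% higher in wild type and 31.2% and 25.0% in ARID1B-KO, of which the wild-type share lower and the ARID1B-KO share higher are near those of all genes. The cytosolic ALDH1L1 rose by 1.60 ± 0.10 and 1.67 ± 0.10, where its mitochondrial relative ALDH1L2 gave -0.50 and -1.79. Of 13 other amino acid transporters tested, wild type had 6 lower and 3 higher, and ARID1B-KO 3 lower and 4 higher. SLC38A1 fell (-1.21 ± 0.12 and -1.50 ± 0.12), and the glutamate transporter SLC1A2 (1.88 ± 0.16 and 2.03 ± 0.16) and SLC38A4 (2.49 ± 0.20 and 2.46 ± 0.20) rose. Of 10 proline, glutamate and aspartate enzymes, the counts were 3 lower and 4 higher in wild type and 6 lower and 3 higher in ARID1B-KO, with the aspartate aminotransferase GOT1 at -0.92 ± 0.08 and -0.76 ± 0.08 and the alanine aminotransferase GPT at 1.59 ± 0.16 and 1.82 ± 0.16. Of 12 genes of the IRE1 and ATF6 arms of the unfolded protein response, 7 fell in wild type and 6 in ARID1B-KO and none rose, with XBP1 at -0.47 ± 0.12 and -0.66 ± 0.12. The genes named from these lists passed the edgeR test in both genotypes.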

How the data were processed

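The authors deposited 1 Salmon table per library, which per the file headers gives an estimated count, a length, an effective length and a TPM for each of 177456 transcripts. The deposited estimated counts, headed NumReads, were taken as not normalized. The TPM values deposited by the authors are scaled within each library. The submitters' processing notes name Salmon and DESeq2 1.46.0 and the build GRCh38; the design text names Ensembl 109. Transcripts were matched to GENCODE 44 by identifier (165533, 93.3%); the other 11923, with 2.87% to 3.20% of counts, were left out. Counts were summed per gene and rounded.

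All 12 libraries entered 1 fit in edgeR 4.0.16 (R 4.3.3; TMM, filterByExpr, robust quasi-likelihood F test) with 4 group means and 5 contrasts, with Benjamini-Hochberg adjustment over 12821 genes. CPM use the TMM library sizes, and TPM were summed per gene. Standard errors were obtained as the size of a log2 fold change over the root of its F statistic. The common coefficient of biological variation came to 0.152. The procedure was also run on simulated counts, and the outcome of that run is not given here. Salmon divides reads that fit several transcripts, so levels of overlapping genes (9 members share exonic bases with another gene of at least 10 counts) are uncertain; 27 pseudogenes named after members held a mean of at most 1 count.

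Groups came from the sample titles. Per-library values are given for ATF4, DDIT3, TRIB3, ASNS, CHAC1, PHGDH, PSAT1 and each member called with a log2 fold change of at least 1 in size, and up to 3 genes are named from each of 8 lists of related genes by smallest adjusted p. Members, lists and rules were chosen with earlier results of these data known. Alternatives were DESeq2 1.42.0, RLE size factors, no filter on low counts, an offset for transcript length, only the groups compared, a block for the replicate number and leaving out each library.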

Additional observations from a re-analysis of the deposited data

Results flagged for a closer look

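In the reported fit, the response of 2 members to sorafenib was called as different between genotypes by the test of the difference itself. MTHFD1L, the mitochondrial formate-producing enzyme, fell further in ARID1B-KO than in wild type, with a difference of -0.86 ± 0.15 on the log2 scale (edgeR adjusted p = 0.0264), and ARID1B-KO was the lower of the genotypes in each of the 3 libraries of each treatment. ATF5 had a difference of -0.65 ± 0.11 (edgeR adjusted p = 0.0263), from the highest level in ARID1B-KO DMSO to the lowest in ARID1B-KO sorafenib. Both calls were fragile: with 1 of the 12 libraries left out in turn, that of MTHFD1L was lost in 10 fits and that of ATF5 in 9. Leaving out wild-type sorafenib replicate 3 gave -0.89 (edgeR adjusted p = 0.0746) for MTHFD1L and -0.62 (adjusted p = 0.0746) for ATF5. An offset for transcript length gave -0.67 and -0.42 (edgeR adjusted p = 0.286 and 0.418), and ATF5 also missed the threshold with the replicate block (adjusted p = 0.0518). For this difference DESeq2 called 584 of all genes, where edgeR called 107. Of the members, DESeq2 called 6 as lower and NUPR1 as higher, among them TRIB3 (-0.33, adjusted p = 0.0361), PYCR1, WARS1 (-0.45, adjusted p = 0.0163) and IARS1 (-0.37, adjusted p = 0.0104).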

How the results depend on the processing

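No member called in the reported fit changed sign under any alternative run. Of the 22 members lower with sorafenib in wild type 20 kept their call under every alternative, of the 28 lower in ARID1B-KO 23 did, of the 6 and 7 higher 1 and 3 did, and of the 10 and 19 lower in ARID1B-KO in DMSO and sorafenib 4 and 9 did. With an offset for transcript length, all-gene calls were 2867 in place of 4543 for sorafenib in wild type, 2189 in place of 3563 for genotype in DMSO, 2046 in place of 3463 for genotype in sorafenib and 2 in place of 107 for the interaction. Members higher were then 3 and 4 with sorafenib in wild type and ARID1B-KO and 4 for genotype in sorafenib, and members lower were 5 and 11 for genotype and 0 for the interaction; the cause was not tested. For the interaction DESeq2 called 584 genes, 1 member higher and 6 lower. Leaving out 1 library gave 3 to 7 members higher with sorafenib in wild type, 5 to 12 lower for genotype in DMSO, and for the interaction 5 to 138 genes and 0 to 2 members lower. Deviations of same-numbered replicates correlated at -0.163 to 0.184, over 0.1 in 1 of 18 pairs, so the numbers were not taken to pair the libraries. That pair was replicate 3 of ARID1B-KO DMSO with replicate 3 of ARID1B-KO sorafenib (0.184). In 8 of 18 pairs, this one and all 3 of wild-type DMSO with wild-type sorafenib among them, the best match was the own number. With the replicate block the interaction called 19 genes and 1 member lower, and no other count moved by over 1.5 times. Members with few counts (ATF3, VLDLR, ALDH1L2) have the widest errors.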

Other observations

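At the level of transcripts, for which Salmon assigns shared reads by estimate and no test was run, the wild-type and ARID1B-KO libraries differed in the ATF4 transcript ATF4-201. It held 1058, 791 and 932 estimated counts in wild-type DMSO and 858, 619 and 750 in wild-type sorafenib, and 227, 391 and 299 in ARID1B-KO DMSO and 512, 329 and 429 in ARID1B-KO sorafenib. Every ARID1B-KO value was below every wild-type value, before any correction for depth. The main transcript ATF4-202 held 11477, 6432 and 8003 counts and 7479, 4969 and 6476 in wild type, and 6908, 7958 and 8687 and 5992, 6461 and 6633 in ARID1B-KO, in the same order, and these ranges overlap.

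IARS1 counts were divided between a protein-coding transcript (IARS1-202) and one annotated for nonsense-mediated decay (IARS1-204). The latter held 1967, 1420 and 1926 estimated counts in wild-type DMSO and 933, 0 and 0 in wild-type sorafenib, and 1414, 2326 and 1620 in ARID1B-KO DMSO and 670, 973 and 1099 in ARID1B-KO sorafenib. IARS1-202 held 3119, 2877 and 3237 and then 2732, 2501 and 3156 in wild type, and 2560, 2221 and 2665 and then 1631, 1320 and 921 in ARID1B-KO. In wild type with sorafenib, 2 of 3 libraries thus listed the decay transcript at 0, and the share of IARS1 counts on protein-coding transcripts was 72.7%, 95.9% and 99.3%, against 59.7%, 65.7% and 61.0% with DMSO. How much of this comes from the assignment of shared reads was not tested.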
